A study of Rattus norvegicus with 16 samples.

Results

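The Fos family comprises 4 genes, Fos, Fosb, Fosl1 (encoding Fra-1) and Fosl2 (encoding Fra-2). Its members were taken as the array probes named for one of these genes. A single probe each was found for Fos, Fosl1 and Fosl2, so 3 of the 41012 probes for transcripts, which carry 35199 distinct names, represent 3 of the 4 genes. No probe carried the name Fosb, which was not analysed here. All 3 probes passed the filter on dim signals that 27294 probes passed.

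Fos proteins are the partners of Jun proteins in AP-1, a dimeric transcription factor of the basic leucine zipper class, and they bind DNA only as such dimers. Fos is the classic immediate early gene of neurons: calcium influx through NMDA receptors or voltage-gated channels activates SRF with its ternary complex partners and CREB at the Fos promoter, and the mRNA decays rapidly through AU-rich elements. Fosl1 and Fosl2 encode shorter proteins without the strong transactivation domain of Fos, and they are typically induced later and for longer.

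RNA was taken from primary hippocampal neuron cultures of Sprague-Dawley rat embryos, embryonic day 18 to 19 and either sex, in a study of PRR7, a transmembrane adaptor protein of synapses. The PRR7 knockdown cultures carried a pTRIP lentivirus expressing a short hairpin RNA (shRNA) against the PRR7 coding region, and the PRR7 overexpression cultures carried full-length PRR7 in the FUGW lentivirus. The nontargeting cultures received a control lentivirus whose shRNA has no target, and the not transduced cultures received no virus. Each group held 4 samples, called biological replicates in the study design. The labels name no promoter for the shRNA, and no group with an empty FUGW virus was analysed here, so that virus and PRR7 overexpression cannot be told apart in the comparison with not transduced cultures. No probe was named Prr7, so the group labels were not checked on the targeted gene.

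The 16 samples were read on 8 two-colour Agilent arrays, each carrying 2 samples of 1 group: replicates 1 and 2 shared an array, as did replicates 3 and 4. Slide 1 held the knockdown and nontargeting arrays, and slide 2 the overexpression and not transduced arrays. For any other pair of groups a difference between slides cannot be told apart from one between groups. In each sample 50.2% to 70.5% of the probes rose well above background, with a median net signal of 73.2 to 150 intensity units, and the small number of arrays limits the precision. Of 14 neuron markers 13 were tested, all well above background in every sample, and the remaining marker, Rbfox3, was not tested. In bulk cultures, fewer cells of a type and less RNA per cell cannot be told apart.

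What the 2 probes shown here can read is visible in their sequences, both 60 bases long and both within the coding sequence. The Fos probe starts at base 686 of its transcript (chromosome 6, 109561099 to 109561158, rn4) and covers part of the leucine zipper, through which Fos pairs with Jun. Its capitals mark 3 leucine codons spaced one heptad apart. The Fosl2 probe starts at base 103, in the part that encodes the amino-terminal end ahead of the zipper, and has no position in the array annotation.
Fos: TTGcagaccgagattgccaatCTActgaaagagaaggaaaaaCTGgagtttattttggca
Fosl2: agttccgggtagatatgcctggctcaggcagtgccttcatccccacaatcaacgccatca
The Fosl1 probe lies further along its transcript, from base 1371 (chromosome 1, 208098827 to 208098886, rn4). The longest run of bases shared between any pair of the member probes was 6 bases, and 0 other probes on the array shared 20 bases with any of them.

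Fos stood far higher in nontargeting cultures than in any other group. Fosl1 was also highest there, by less, with knockdown cultures in between, and Fosl2 stayed dim and was called in no comparison. Values below are normalized log2 intensities, on which a difference of 1 is a 2-fold change. Levels are set side by side only within a probe, since probes differ in how brightly they bind. A difference was called when the limma p, adjusted by the Benjamini-Hochberg method over all 27294 probes, was under 0.05.

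**Figure D1:**
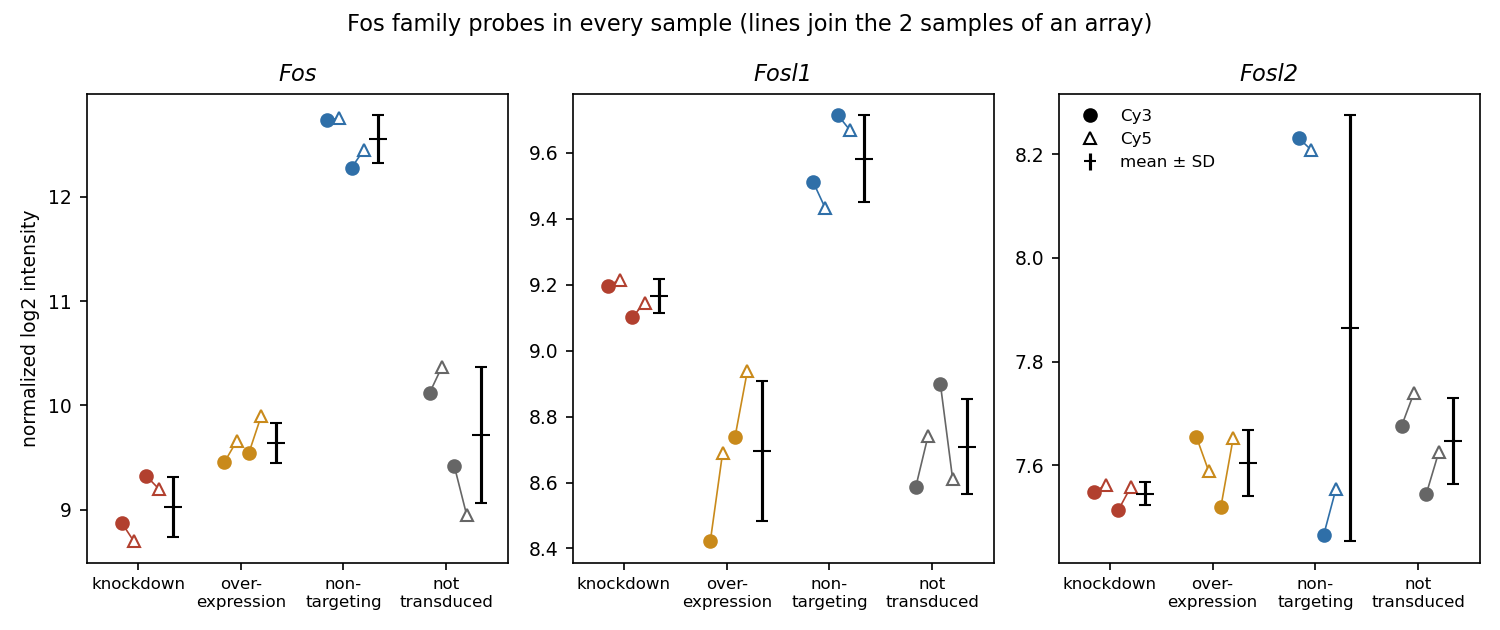
Normalized log2 intensity (vertical axis) of the 3 Fos family probes in all 16 samples, by group, with circles for Cy3, triangles for Cy5, lines joining the 2 samples of an array and black bars for the mean ± SD of 4 samples. The vertical scale differs between panels. All 4 nontargeting samples lay above 12.2 for Fos, while every other sample lay below 10.4.

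Fos encodes the founding member of the family and the strongest activator in it. Its log2 intensity was 8.88, 8.70, 9.32 and 9.20 in knockdown replicates 1 to 4. It was 9.45, 9.66, 9.55 and 9.90 in overexpression replicates, 12.74, 12.76, 12.28 and 12.45 in nontargeting replicates, and 10.12, 10.37, 9.42 and 8.95 in not transduced replicates. The nontargeting samples were all above the other 12. The not transduced samples were divided, with replicates 1 and 2 above every knockdown and overexpression sample and replicates 3 and 4 below every overexpression sample. Replicate 3 lay just above the knockdown samples and replicate 4 within their range.

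Knockdown against nontargeting sets cultures with an shRNA against PRR7 beside cultures with a control shRNA, on the same slide. That PRR7 was lowered was not checked, and PRR7 and the hairpin used cannot be told apart in it. Fos averaged 9.02 ± 0.29 in knockdown cultures and 12.56 ± 0.23 in nontargeting cultures (SD, n = 4 each). It was 11.6-fold lower in knockdown than in nontargeting cultures (log2 difference -3.53, SE 0.30, 95% interval -4.16 to -2.90, limma adjusted p = 1.21433e-06). By size this was rank 1 among all probes tested, and by p it was rank 99. The difference was -3.41 in Cy3 and -3.66 in Cy5. Of all probes tested, 21% were called in this comparison, and Fos was the 1 called member of 3. The groups did not overlap for Fos and Fosl1, against 37.7% of all probes. Fos in nontargeting cultures also stood above not transduced cultures (log2 difference 2.84), while knockdown against not transduced (-0.69) was not called.

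Overexpression against not transduced sets cultures with the FUGW virus and PRR7 overexpression against cultures without virus, so virus and PRR7 cannot be told apart in it. Fos averaged 9.64 ± 0.19 in overexpression cultures and 9.71 ± 0.65 in not transduced cultures, a log2 difference of -0.07 with a 95% interval of -0.70 to 0.56 (limma adjusted p = 0.999964). The groups overlapped, for all 3 members, while groups were apart for 6.45% of all probes. No Fos family probe was called, in a comparison with 0.00366% of probes called, a single probe, of Eftud2 (a splicing factor), which was named after its value was seen. At an unadjusted p under 0.05, 1036 probes passed, none of them a member. The not transduced samples divided by array: replicates 1 and 2 averaged 10.25 and replicates 3 and 4 averaged 9.18, a gap of 1.07 that was larger than that of 99.1% of probes. Without the array of replicates 1 and 2 the difference was 0.46, and without the array of replicates 3 and 4 it was -0.61, neither of them called. The same gap was 0.91 for Nr4a1, 0.48 for Ccn1, 0.20 for Egr1, 0.19 for Dusp1 and 0.01 for Arc. It was -0.08 for Junb and -0.14 for Sik1. Of 27 other immediate early genes, 14 were higher on the array of replicates 1 and 2, with a median gap of 0.01.

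Nontargeting against not transduced sets cultures with a control virus against cultures without one, on different slides. Fos rose 7.18-fold in nontargeting cultures (log2 difference 2.84, SE 0.30, 95% interval 2.21 to 3.47, limma adjusted p = 1.24333e-05), rank 3 by size among all probes. Between overexpression and nontargeting, also on different slides, Fos fell 7.56-fold in overexpression cultures (log2 difference -2.92, 95% interval -3.55 to -2.29, adjusted p = 1.04657e-05). All 4 nontargeting samples were above all samples of both other groups, and groups were likewise apart for 32.2% of all probes in the comparison with not transduced cultures and 36.6% in that with overexpression cultures. The background of calls was 22.2% for nontargeting against not transduced and 22.5% for overexpression against nontargeting, and 2 of the 3 members, Fos and Fosl1, were called in each. These comparisons and the knockdown comparison share the nontargeting samples.

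Knockdown cultures had the lowest Fos mean of the 4 groups. The difference from overexpression cultures was -0.62 (95% interval -1.25 to 0.01, limma adjusted p = 0.204676), with every knockdown sample below every overexpression sample, as groups were apart for 36.2% of all probes. The difference from not transduced cultures was -0.69 (95% interval -1.32 to -0.06, adjusted p = 0.158722), and these groups overlapped. None of the 3 members was called in either comparison, where 10.3% of probes were called for knockdown against overexpression (5.53% higher and 4.76% lower) and 10.1% for knockdown against not transduced. The difference from not transduced cultures was called without not transduced replicate 4 (-0.88, adjusted p = 0.0343407) and without the array of not transduced replicates 3 and 4 (-1.22, adjusted p = 0.00864986). In order of mean the groups ran knockdown, overexpression, not transduced, nontargeting, and of the neighbours in that order only not transduced and nontargeting differed past the test.

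**Figure D2:**
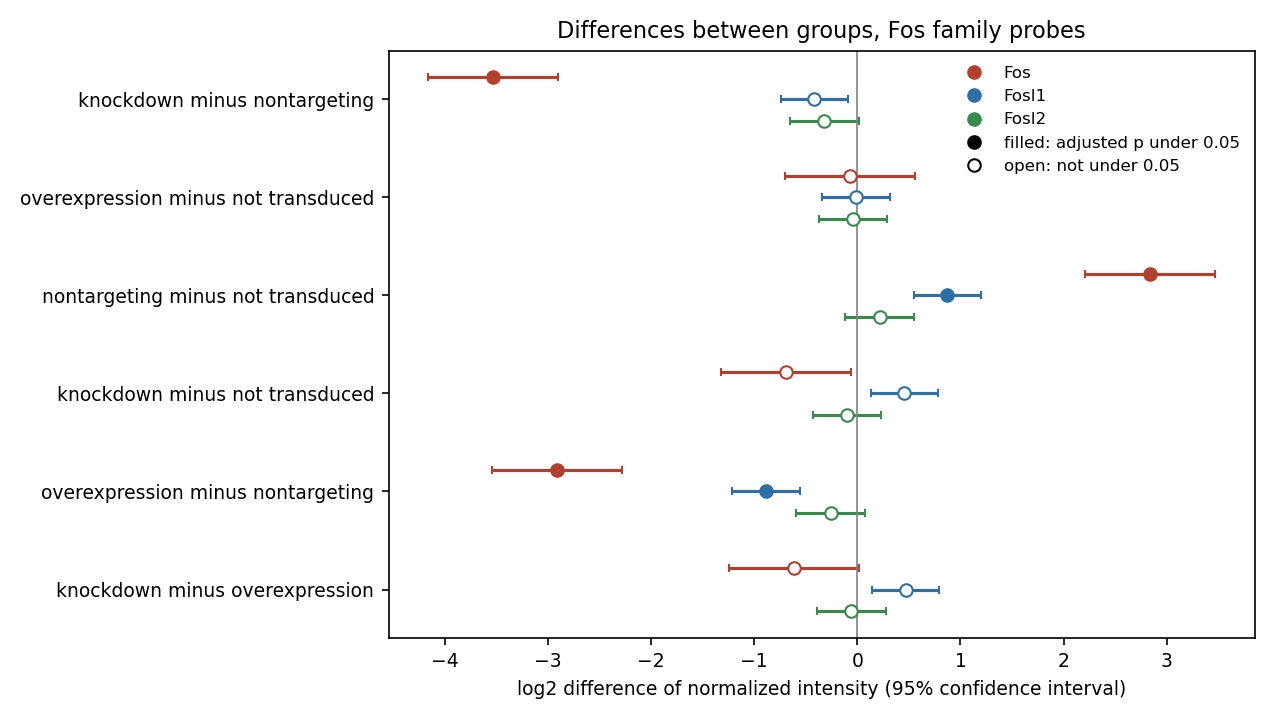
Log2 difference of normalized intensity (horizontal axis) with its 95% confidence interval for each Fos family probe in each of the 6 comparisons, filled where the limma adjusted p was under 0.05. Fos was called in the 3 comparisons that involve nontargeting cultures, at -3.53, 2.84 and -2.92, and Fosl1 in 2 of them, at 0.87 and -0.89.

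Fosl1 encodes Fra-1, an AP-1 subunit that in many cells is itself induced through AP-1. Its log2 intensity was 9.20, 9.21, 9.10 and 9.15 in knockdown replicates and 8.42, 8.69, 8.74 and 8.94 in overexpression replicates. It was 9.51, 9.43, 9.72 and 9.67 in nontargeting replicates and 8.59, 8.74, 8.90 and 8.61 in not transduced replicates. Nontargeting samples were the highest and knockdown samples came next without overlap, while overexpression and not transduced samples overlapped each other and lay below both.

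Fosl1 rose 1.83-fold in nontargeting against not transduced cultures (log2 difference 0.87, SE 0.15, limma adjusted p = 0.000906556). It fell 1.85-fold in overexpression against nontargeting cultures (log2 difference -0.89, SE 0.15, adjusted p = 0.000838563). The groups did not overlap in either comparison. The same held for 32.2% of all probes between nontargeting and not transduced cultures and 36.6% between overexpression and nontargeting cultures. Both calls held in all 38 alternatives run for each, which ranged from 0.76 to 1.15 for nontargeting against not transduced and from -1.22 to -0.74 for overexpression against nontargeting.

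The knockdown level of Fosl1, 9.16 ± 0.05 (SD, n = 4), lay between those of the other groups, and none of its 3 differences was called. Against nontargeting cultures (9.58 ± 0.13) the difference was -0.42 (95% interval -0.74 to -0.09, limma adjusted p = 0.0658581). Against not transduced cultures (8.71 ± 0.14) it was 0.46 (adjusted p = 0.0737738), and against overexpression cultures (8.70 ± 0.21) it was 0.47 (adjusted p = 0.0642276). In each case the groups did not overlap, as was so for 29.7% of all probes between knockdown and not transduced cultures. That share was 37.7% between knockdown and nontargeting cultures and 36.2% between knockdown and overexpression cultures. With the replicate number as a block, all 3 passed, at adjusted p = 0.044153 against nontargeting, 0.0484776 against not transduced and 0.0422117 against overexpression cultures. The side of the threshold thus depended on the model. The difference of overexpression from not transduced cultures was -0.01 (95% interval -0.34 to 0.31).

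Fosl2 encodes Fra-2, which resembles Fra-1 in lacking the strong activation domain of Fos. Its log2 intensity was 7.55, 7.56, 7.51 and 7.56 in knockdown replicates and 7.66, 7.59, 7.52 and 7.65 in overexpression replicates. It was 8.23, 8.21, 7.47 and 7.55 in nontargeting replicates and 7.68, 7.74, 7.55 and 7.62 in not transduced replicates. Only nontargeting replicates 1 and 2, which shared an array, stood clearly above the rest, and every pair of groups overlapped.

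Fosl2 was called in none of the 6 comparisons. Its differences ranged from -0.32 for knockdown against nontargeting (95% interval -0.65 to 0.01, limma adjusted p = 0.171111) to 0.22 for nontargeting against not transduced (adjusted p = 0.346769). The nontargeting array of replicates 1 and 2 averaged 8.22 and that of replicates 3 and 4 averaged 7.51, a gap larger than that of 94.4% of probes. Without the array of replicates 3 and 4, Fosl2 was called at -0.67 in knockdown against nontargeting (adjusted p = 0.00047459), at 0.57 in nontargeting against not transduced (0.00163253) and at -0.61 in overexpression against nontargeting (0.00108169). Without the array of replicates 1 and 2 these differences were 0.04, -0.14 and 0.09, none of them called. The Fosl2 signal was well above background in 3 of 4 nontargeting samples and in all samples of the other groups, with net signals between 58.5 and 239 intensity units.

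A further probe, outside the rule because it carries an accession (AW141666) as its name, is described on the array as similar to Fra-2. Its mean log2 intensity was 8.38 ± 0.11 in knockdown, 8.60 ± 0.17 in overexpression, 8.26 ± 0.24 in nontargeting and 8.48 ± 0.12 in not transduced cultures. It was called in none of the 6 comparisons, and its nontargeting mean was the lowest of the 4.

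The Jun proteins are the obligate partners of the Fos proteins in AP-1. Junb, an AP-1 subunit that is itself an immediate early gene, shared the high nontargeting level of Fos, whereas Jun, which encodes c-Jun, did not. Junb ranged from 8.42 to 9.13 in knockdown, from 8.9996 to 9.37 in overexpression, from 10.92 to 11.15 in nontargeting and from 9.54 to 9.85 in not transduced cultures. It fell in knockdown against nontargeting cultures (log2 difference -2.33, SE 0.14, limma adjusted p = 6.44366e-08) and in overexpression against nontargeting cultures (-1.89), and rose in nontargeting against not transduced cultures (1.43). Knockdown cultures also had less Junb than not transduced cultures (-0.90, adjusted p = 0.000968642). Against overexpression cultures the knockdown difference was -0.44 (adjusted p = 0.0576974, and 0.0376562 with the replicate number as a block).

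Jun ranged from 10.49 to 11.17 in knockdown, from 11.86 to 12.35 in overexpression, from 10.86 to 11.22 in nontargeting and from 11.90 to 12.61 in not transduced cultures. All knockdown and nontargeting samples, which were on slide 1 and carried an shRNA, lay below all overexpression and not transduced samples. Slide and shRNA virus cannot be told apart in this division. Jun was lower in knockdown than in overexpression cultures (log2 difference -1.32, limma adjusted p = 0.00596843) and than in not transduced cultures (-1.48, 0.00294369). It was higher in overexpression than in nontargeting cultures (1.16, 0.00660247) and lower in nontargeting than in not transduced cultures (-1.32, 0.0028504). Within a slide it was not called, at -0.17 in knockdown against nontargeting cultures (0.728258) and -0.16 in overexpression against not transduced cultures (0.999964). Without the array of knockdown replicates 1 and 2, the difference of knockdown from overexpression was -1.05 (0.0894515) and that from not transduced cultures -1.21 (0.0506481). Without the array of overexpression replicates 3 and 4, the difference of knockdown from overexpression was -1.20 (0.0701509) and that of overexpression from nontargeting 1.04 (0.0700813). Jund, the subunit that is expressed most constantly in many cells, was called in none of the 6 comparisons.

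Many other immediate early genes were, like Fos, highest in nontargeting cultures. Of 27 measured genes of the list, 17 were lower and 2 higher in knockdown than in nontargeting cultures, with a median log2 difference of -0.92 against -0.02 over all probes tested. Over all probes, 10.8% were called lower and 10.3% higher. By the smallest p the leading genes were Csrnp1, a nuclear protein (-1.68, 3.79956e-07), Ccn1, a secreted matricellular protein (-2.72, 4.16351e-07), Dusp1, a phosphatase of MAP kinases (-1.99, 2.15689e-06), and Nr4a1, an orphan nuclear receptor (-2.53, 2.89587e-06). These are limma adjusted p values, and a second probe of Csrnp1 did not pass. The 2 higher genes, named after their values were seen, were Homer1, a postsynaptic scaffold protein (1.77), whose other probe passed in the opposite direction, and Egr1, a zinc finger transcription factor (0.98).

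Between nontargeting and not transduced cultures, 13 of the 27 immediate early genes were higher and 3 lower, with a median of 0.63 against 0.03 over all probes, of which 11.2% were called higher and 11.1% lower. The leading genes were Csrnp1 (1.78), Arc, a synaptic regulator of AMPA receptor trafficking (1.37), Ccn1 (2.61) and Nr4a1 (2.93). Between overexpression and nontargeting cultures 15 were lower and 2 higher, where 11.9% of probes were called lower and 10.6% higher. Between overexpression and not transduced cultures 0 of the 27 passed, where 0.00366% of all probes were called. Arc had the smallest p there, with a difference of -0.45 (limma adjusted p = 0.722564). Between knockdown and not transduced cultures 5 were lower and 2 higher, with a median of -0.02, where 5.36% of all probes were called lower and 4.76% higher. The lower ones were led by Ier2, an immediate early response protein (-1.34, adjusted p = 0.000719642), and Ppp1r15a, a phosphatase regulator of the integrated stress response (-1.36), and the higher ones by Arc (0.46). Over 13 alternative settings, the count of lower genes ranged from 14 to 19 in knockdown against nontargeting, and the count of higher genes from 12 to 15 in nontargeting against not transduced. The counts in knockdown against not transduced moved more, from 3 to 7 lower and from 0 to 3 higher: 3 were lower and 1 higher without the array of knockdown replicates 1 and 2, and 0 were higher without that of knockdown replicates 3 and 4. Likewise 1 was higher without the array of not transduced replicates 3 and 4.

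**Figure D3:**
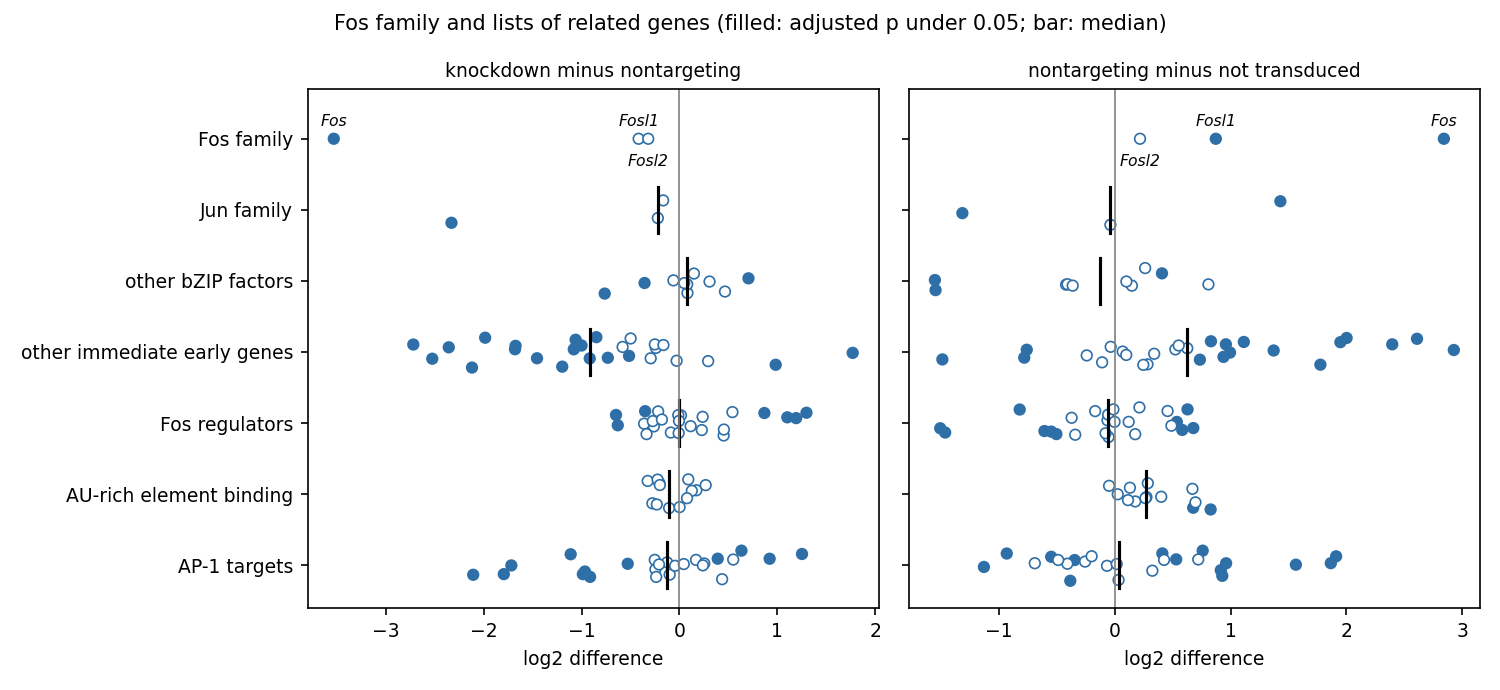
Log2 difference of normalized intensity (horizontal axis) for each Fos family probe and each measured gene of 6 lists, in knockdown minus nontargeting (left) and nontargeting minus not transduced (right), filled where the limma adjusted p was under 0.05, with a bar at the median of each list. The other immediate early genes lay mostly below 0 on the left (median -0.92) and above 0 on the right (median 0.63), while the other lists had medians nearer 0.

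The remaining basic leucine zipper factors that can join AP-1 or resemble it had no common direction. Of 10 measured, 1 was higher and 2 lower in knockdown than in nontargeting cultures, where 10.3% of all probes were higher and 10.8% lower. Maf, a large Maf factor, was higher (0.71), and Mafg (-0.76), of which a second probe did not pass, and Mafk (-0.36, limma adjusted p = 0.0496606), both small Maf factors, were lower. Between nontargeting and not transduced cultures 1 was higher and 2 lower, against 11.2% and 11.1% of all probes, and the lower ones were Maf (-1.55) and Atf3, a stress-induced factor (-1.55). Over the 13 alternatives the counts were 1 to 2 higher and 1 to 2 lower in knockdown against nontargeting, and 0 to 2 higher and 1 to 3 lower in nontargeting against not transduced. Atf3 averaged 10.51 in knockdown, 12.15 in overexpression, 10.57 in nontargeting and 12.12 in not transduced cultures. Its means thus divided as those of Jun did, where slide and shRNA virus cannot be told apart.

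Among 24 measured regulators of Fos transcription, 4 were higher and 3 lower in knockdown than in nontargeting cultures, beside 10.3% and 10.8% of all probes. The list as a whole had a median log2 difference of -0.01, against -0.02 over all probes. Among the higher ones were Stat3, a cytokine-responsive factor (1.30), Elk4, a ternary complex factor that binds beside SRF (1.19), and Srf itself (0.87), of which a second probe did not pass. In nontargeting against not transduced cultures 6 were lower, among them Stat3 (-1.51) and Elk4 (-1.47), and 4 were higher, beside 11.1% lower and 11.2% higher over all probes. The list median was then -0.06, against 0.03 over all probes. The count lower in knockdown against nontargeting was 0 without the array of knockdown replicates 1 and 2 and 5 without the array of nontargeting replicates 1 and 2, and the count higher was 7 without the array of not transduced replicates 3 and 4. In nontargeting against not transduced cultures the count higher was 2 without 4 of the arrays: that of knockdown replicates 1 and 2, that of nontargeting replicates 3 and 4 and either not transduced array. Of 13 proteins that bind AU-rich elements or act in the decay of such mRNAs, 0 passed in knockdown against nontargeting, where Pabpc1, a poly(A)-binding protein, had the smallest p (-0.33, limma adjusted p = 0.111823). In nontargeting against not transduced cultures, where 11.2% of all probes were higher, 2 of the 13 were so: Hnrnpd, which binds AU-rich elements (0.83) and of which a second probe did not pass, and Tob1, which recruits deadenylases (0.68). Over the 13 alternatives this count was 1 to 3, with 1 without the array of not transduced replicates 1 and 2. The count lower in knockdown against nontargeting was 0 to 2, with 2 without the array of nontargeting replicates 1 and 2.

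Genes described as AP-1 targets in various cells went both ways. Of 25 measured, 8 were lower and 4 higher in knockdown than in nontargeting cultures, with a median of -0.13, where 10.8% of all probes were lower and 10.3% higher. Bdnf, a neurotrophin (-2.11), Rgs2, a regulator of G protein signalling (-1.80), and Ptgs2, the inducible cyclooxygenase (-0.91), were lower, and Gria2, an AMPA receptor subunit (1.25), was higher. In nontargeting against not transduced cultures 9 were higher and 5 lower, against 11.2% and 11.1% of all probes, with Bdnf (1.91), Rgs2 (1.56) and Ptgs2 (0.93) higher and Gria2 lower (-1.13). In overexpression against not transduced cultures 0 of the 25 passed, where 0.00366% of all probes were called. Leaving out an array moved these counts: 4 were lower and 2 higher in knockdown against nontargeting without the array of knockdown replicates 3 and 4, and 6 lower and 2 higher without that of replicates 1 and 2. In nontargeting against not transduced, 5 were higher without the array of nontargeting replicates 1 and 2 (3 lower) or without that of not transduced replicates 3 and 4, and 6 without that of not transduced replicates 1 and 2.

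The genes most like Fos over all 16 samples were found by the root-mean-square difference of log2 intensity after each probe was centred on the mean of its 4 group means, among 10617 genes. They were Ccn1 (0.440), Mesp1, a basic helix-loop-helix factor (0.521), Nr4a1 (0.569), Sik1, a salt-inducible kinase (0.581), and Hspb1, a small heat shock protein (0.582), against 1.41 for Fos set against a flat line. Mesp1 fell in knockdown against nontargeting cultures (-2.88) and Hspb1 did so too (-2.33). These genes were picked for their likeness to Fos in the same samples, so such falls follow from the choice and are no separate support. For Nr4a1 the knockdown mean, 11.15, was above the overexpression mean, 10.34 (difference 0.81, limma adjusted p = 0.0371646). For Fos the same difference was -0.62 and was not called. These groups were on different slides, and Nr4a1 was not tested against Fos.

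Most like Fosl1 were Scarb2, a lysosomal membrane protein (0.0964), Twist1, a basic helix-loop-helix factor (0.132), Tmem181 (0.134), Rsph9, a radial spoke protein of cilia (0.143), and Htr2c, a serotonin receptor (0.145), against 0.388 for Fosl1 set against a flat line. Scarb2 averaged 10.09 in knockdown, 9.52 in overexpression, 10.45 in nontargeting and 9.63 in not transduced cultures. The likeness is a description of these samples, which share arrays and slides.

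**Figure D4:**
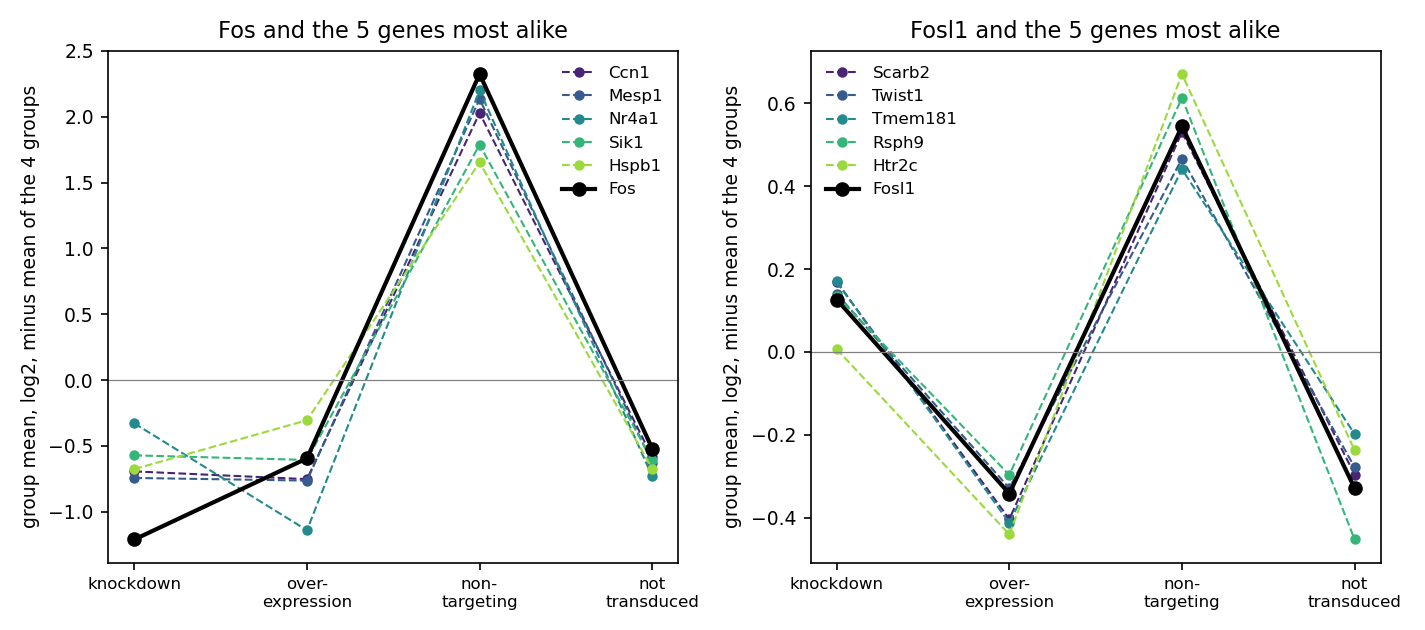
Mean of each group minus the mean of the 4 groups (vertical axis, log2) for Fos (left, black) and Fosl1 (right, black) with the 5 genes most alike in pattern (coloured), where lines only join the points of a gene. Fos lay at 2.32 in nontargeting cultures and at -1.21 in knockdown cultures, and Fosl1 at 0.54 in nontargeting and 0.13 in knockdown cultures.

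Markers of other cells also differed between the groups. Of 13 tested markers of proliferating cells 9 were higher and 0 lower in knockdown than in nontargeting cultures, where 10.3% of all probes were higher and 10.8% lower. Their summed intensity over 12 probes lay between 19796 and 21447 in knockdown, 10180 and 13929 in overexpression, 9336 and 10502 in nontargeting and 9511 and 15434 in not transduced cultures. Of 13 interneuron markers 6 were higher and 2 lower in knockdown than in nontargeting cultures. In nontargeting against not transduced cultures 8 were lower and 0 higher, where 11.1% of all probes were lower and 11.2% higher. Their summed intensity lay between 34769 and 45097 in knockdown, 54769 and 69934 in overexpression, 40403 and 53209 in nontargeting and 60015 and 73696 in not transduced cultures. Such sums weigh the brightest probes most. The 2 markers lower in knockdown than in nontargeting cultures, named after their values were seen, were among the brighter ones: Calb2 (-1.67) and Cck (-0.54). The astrocyte markers, 11 probes summed, lay between 99728 and 112952 in knockdown, 129030 and 160125 in overexpression, 77877 and 100841 in nontargeting and 97806 and 148891 in not transduced cultures. Of 13 neuron markers 2 were higher and 2 lower in knockdown than in nontargeting cultures, near the shares over all probes. The part of these markers in the Fos family results was not tested.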

How the data were processed

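Sample groups came from the source label and title. A description label naming adult brain tissue contradicts the culture protocol and was not used. Per the file headers, the deposited scanner output of Agilent Feature Extraction 10.7.3.1 holds mean spot intensities and median local background intensities in 2 dyes, not normalized. The deposited series matrix holds log2 values that matched, with a slope of 1, the authors' median signal minus median background, centred on each column's median. The 2 files deposited for an array were identical.

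Intensities were background-corrected by normexp (offset 50), balanced by loess within arrays and Aquantile between arrays in limma 3.58.1 (R 4.3.3, statmod 1.5.0), and each sample was read from its own dye. Probes well above background in at least 4 samples, with at least 12 values in all and 2 in each group, were kept. One limma fit over the 16 samples took each sample's own-dye log2 intensity, with terms for group and dye, and treated samples of 1 array as correlated (random block, 0.562), and p values are two-sided. In simulated data of 27294 probes for knockdown against nontargeting, 77 of 100 probes changed 2-fold and 99 of 100 changed 4-fold were recovered. There were 13 false calls. The simulated noise was normal and had the form of the fitted model, and only these probes were changed. In the real comparison 21% of probes were called, so the recovery there can differ.

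The members and lists were chosen with earlier results of these data known. A list gene is represented by its brightest tested probe. At most 4 list members with the smallest p were named in a comparison, and Jun, Junb and Jund always. Other named genes are the 5 most alike in pattern. One gene that the rule names is not reported here. Alternatives covered normalization, filter, dye, unit of testing, replicate block and left-out samples; leaving out arrays, and every alternative for the lists, were chosen after seeing the data.

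Same-numbered samples were checked for pairing by correlating deviations from the group means. The 4 correlations were 0.137, 0.156, 0.264 and 0.201 between knockdown and nontargeting, and all above 0.1 also between knockdown and both slide 2 groups, so the numbers were treated as pairing there. Same-numbered samples share a dye, and with the dye removed the correlations of knockdown fell to as low as 0.0705 with nontargeting, 0.0391 with not transduced and 0.0297 with overexpression, so that none of the 3 pairs of groups then had every correlation above 0.1. In the other pairs of groups at least 1 correlation was below 0.1.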

Additional observations from a re-analysis of the deposited data

How the results depend on the processing

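Fos kept its direction and its call in knockdown against nontargeting (-4.06 to -3.30), nontargeting against not transduced (2.31 to 3.38) and overexpression against nontargeting (-3.27 to -2.73) in all 38 alternatives for each. Calls of Fosl1 in the knockdown comparisons passed in 7 alternatives against nontargeting, 6 against not transduced and 9 against overexpression cultures. With the replicate number as a block, for groups whose numbers were treated as pairing, the Fosl1 difference of -0.42 between knockdown and nontargeting passed (limma adjusted p = 0.044153). The other knockdown comparisons are given above, and no other call of a Fos family probe changed. The block took the place of the dye term, and the pairing was weak once the dye was removed, so these passes do not rest on an established pairing. For nontargeting against not transduced, overexpression against nontargeting and overexpression against not transduced the samples share only a number and a dye. Fosl2 is dim, and its differences with nontargeting cultures rest on 1 nontargeting array. The cause of each change was not tested.

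Counts of called probes moved by over 1.5 times as follows. For knockdown against nontargeting (5745) they were 2523 with Cy3 samples only, 3517 with Cy5 only, 3626 with a minimum change of 1.5-fold, and 3339 and 3574 without the array of knockdown replicates 1 and 2 or of 3 and 4. For overexpression against not transduced (1) they were 0 with Cy3 only, 0 with Cy5 only, 0 with each array as 1 value, 0 with only the 2 groups, 2 with the processed signal, and 0 to 2 without 1 sample (lowest 0, highest 2). In the same comparison they were 0 without the array of knockdown replicates 3 and 4, 7 and 34 without that of not transduced replicates 1 and 2 or 3 and 4, and 45 without either overexpression array. The unadjusted p was under 0.05 for 1032, 1093, 707, 1095 and 865 probes in the settings with 0 calls, in the order given. For nontargeting against not transduced (6069) they were 2899 with Cy3 only, 3342 with Cy5 only, 3646 with the minimum change and 3783 with only the 2 groups.

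For knockdown against not transduced (2763) they were 705 with Cy3 only, 797 with Cy5 only, 1217 with each array as 1 value and 1748 with the minimum change. Without the array of knockdown replicates 1 and 2 or 3 and 4 they were 1190 and 1316, and without that of nontargeting replicates 1 and 2 or 3 and 4 they were 4181 and 4250. For overexpression against nontargeting (6145) they were 2262 with Cy3 only, 3612 with the minimum change, and 3528 and 3633 without the array of overexpression replicates 1 and 2 or 3 and 4. For knockdown against overexpression (2809) they were 395 with Cy3 only, 1438 with Cy5 only, 1230 with each array as 1 value, 1714 with the minimum change, 4956 with only the 2 groups and 4987 with the series matrix. Without arrays they were 1214 and 1367 (knockdown replicates 1 and 2 or 3 and 4), 4347 and 4468 (nontargeting) and 1211 and 1345 (overexpression).

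With the series matrix, higher and lower calls split 4224 and 1338 for knockdown against nontargeting (2805 and 2940 otherwise), 2490 and 680 against not transduced (1300 and 1463) and 4401 and 586 against overexpression (1509 and 1300). The median of all probes was then 0.18, 0.18 and 0.28 in these comparisons, and -0.12 and -0.11 in overexpression against nontargeting and not transduced. With the processed signal it was -0.10, 0.13 and -0.14 in knockdown against nontargeting, nontargeting against not transduced and overexpression against nontargeting. Fos differed from nontargeting cultures by far more under both.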
